A study of Mus musculus with 6 samples.

Results

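Semaphorins, ephrins, Slits and netrins are secreted or membrane-bound guidance cues, and plexins, neuropilins, Eph receptors, Robo and Unc5 proteins are the receptors that read them. This account covers 70 genes of these families among 30142 genes measured in cancer stem cells from squamous cell carcinomas of mouse skin. Members were matched by gene symbol, with no value in the rule, although the families were picked with earlier results of these data known. The feature with the highest mean over the 6 arrays stood for a gene with several, which concerned only Ephb1. They comprise 19 semaphorins, 8 ephrins, 3 Slits, 3 netrins, 9 plexins, 1 neuropilin, 13 Eph receptors, 4 Robo genes, 4 Unc5 genes and 6 Slitrk genes. Nrp1, Sema4a and Ntn3 were not analysed here, because their features carry several gene symbols. The Eph receptor gene Ephb2 was not among the 70 members either, so it was not assessed. The cells came from wild-type (WT) mice and from mice lacking Sfrp1, a secreted inhibitor of Wnt signalling (Sfrp1-/-, written Sfrp1_KO), with 3 arrays per genotype. All mice of both genotypes had received the carcinogen DMBA on 3 days, at PD 23, 25 and 27 in the labels, and then the tumour promoter TPA 2 times a week for up to 30 to 40 weeks. The sorted cells were lineage-negative and carried Epcam, α6 integrin and CD34. Strain, sex and age at collection are not given in the labels, nor whether the arrays of a genotype came from separate mice, so the p-values measure the spread between these arrays, which may be technical.

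Guidance cues were named for steering axons, and in skin they also set how keratinocytes adhere, separate from neighbours and attract vessels and nerves. Ephrins and Eph receptors both sit in the cell membrane and signal at contacts between cells, in both directions. Secreted class 3 semaphorins bind neuropilins that pair with plexins of class A or with plexin D1, whereas semaphorins of classes 4 to 7 are held at the membrane and mostly bind plexins directly. Slits bind Robo receptors, and netrins bind Dcc, neogenin and Unc5 receptors. Plexins, Robo and Eph receptors pass their signals to small GTPases and thereby to the actin skeleton.

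The deposited values are log2 probe set signals, one value per gene and array, and a difference below is always Sfrp1_KO minus WT in these units. Their maximum of 19.93 exceeds the 16 bits of a scanner, so an unnamed step changed the scale and no folds are given. Array medians lay between 4.32 and 4.46, and the highest of 23 background probe sets, called the background level here, between 4.82 and 5.10. Precision is limited by the small number of arrays. Sfrp1 itself stood at 5.75 ± 0.30 (SD, n = 3) in WT and 5.12 ± 0.03 (SD, n = 3) in Sfrp1_KO. The Sfrp1_KO arrays lay close to background, above it on 2 of 3, and each was lower than every WT array. The difference of -0.64 was not called (limma adjusted p = 0.0969). Which part of the gene is deleted is not given, so the probe set may lie outside it. Of 10 keratinocyte and sort markers 8 fell in Sfrp1_KO and none rose, and their mean level was 9.87 to 10.42 on the WT arrays and 6.31 to 6.53 on the Sfrp1_KO arrays. Epcam, a marker of the sort itself, was above background on 3 of 3 WT arrays and on 1 of 3 Sfrp1_KO arrays. The other sort markers were above background on every array: Itga6 fell (-1.89), and Cd34 was at 9.26 to 9.54 in WT and 10.19 to 11.55 in Sfrp1_KO, higher on every Sfrp1_KO array without passing (1.57, limma adjusted p = 0.0714). Cd34 passed in 4 of the 13 other settings, including without Sfrp1_KO replicate 3 (1.97, limma adjusted p = 0.00664). Of 9 fibroblast markers measured Thy1 rose (0.89) and Fbln1 fell (by at least 0.78). The mean level of this list was 5.95 to 7.49 in WT and 6.22 to 6.78 in Sfrp1_KO. Postn was lower on every Sfrp1_KO array without passing (-3.35, limma adjusted p = 0.117). Dcn was at 6.5, 6.6 and 10.6 in WT and at 10.2, 11.2 and 10.1 in Sfrp1_KO (2.58, limma adjusted p = 0.356). WT replicate 3 was the highest WT array of both, and Dcn passed without it (3.92, limma adjusted p = 0.0105). Of 10 pericyte and smooth muscle markers Pdgfrb rose (3.72), at list levels of 4.66 to 4.86 and 4.85 to 5.06. None of 12 leukocyte and macrophage markers passed, at list levels of 4.47 to 4.56 and 4.76 to 5.43. In 8 of them all Sfrp1_KO arrays were above all WT arrays, where 9.10% of all genes were so. Without Sfrp1_KO replicate 3, C1qb (1.73, limma adjusted p = 0.00436) and C1qa (1.10, limma adjusted p = 0.0264) passed. C1qc did not pass there (limma adjusted p = 0.282). None of 10 blood endothelial (4.29 to 4.77 in WT and 4.43 to 4.59 in Sfrp1_KO), 4 lymphatic endothelial (4.12 to 4.29 and 3.97 to 4.13), 5 T cell (4.10 to 4.22 and 4.07 to 4.19) or 6 melanocyte markers (4.31 to 4.57 and 4.34 to 4.61) passed. Of 7 Schwann cell markers Erbb3, which keratinocytes also express, fell (-1.32; list levels 4.85 to 5.01 and 4.75 to 4.89), and of 8 neuron markers Stmn2 rose (by at least 0.56; 4.34 to 4.51 and 4.57 to 4.66). Their part in the results on guidance genes was not tested, and in sorted bulk RNA a change in the kinds of cells cannot be told apart from a change within each cell.

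The genotypes differed in both directions among the guidance genes. Of the 70 members 8 rose in Sfrp1_KO (Sema7a, Sema5a, Sema3a, Slit3, Slit2, Unc5b, Sema6a and Ntn1), 9 fell (Slitrk6, Efna5, Efnb1, Efna1, Robo1, Plxnb1, Sema3f, Epha1 and Epha4) and 53 did not pass (limma, adjusted over all genes, adjusted p under 0.05). That is 24.3% of the members called, where 3.28% of all genes were called, 1.83% higher and 1.45% lower. The test was also run only on genes above background on at least 3 arrays. There 9 of 34 members rose and 9 fell, beside 610 of 11010 genes higher and 479 lower. The median difference was -0.02 over the members and -0.01 over all genes. In 30 members the arrays of the genotypes did not overlap (13 higher, 17 lower in Sfrp1_KO), against 19.9% of all genes (9.10% higher, 10.8% lower). These 30 include 3 members above background on no array (Sema4d, Slit1 and Unc5a). By role, 7 of 33 ligands rose and 4 fell, 1 of 31 receptors rose and 4 fell, and 1 of 6 Slitrk genes fell; whether ligands and receptors differ in this was not tested. Of the 70 members 34 stood above background on at least 3 arrays, and 29 on no array, so for those 29 the arrays hold no measured level.

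**Figure D1:**
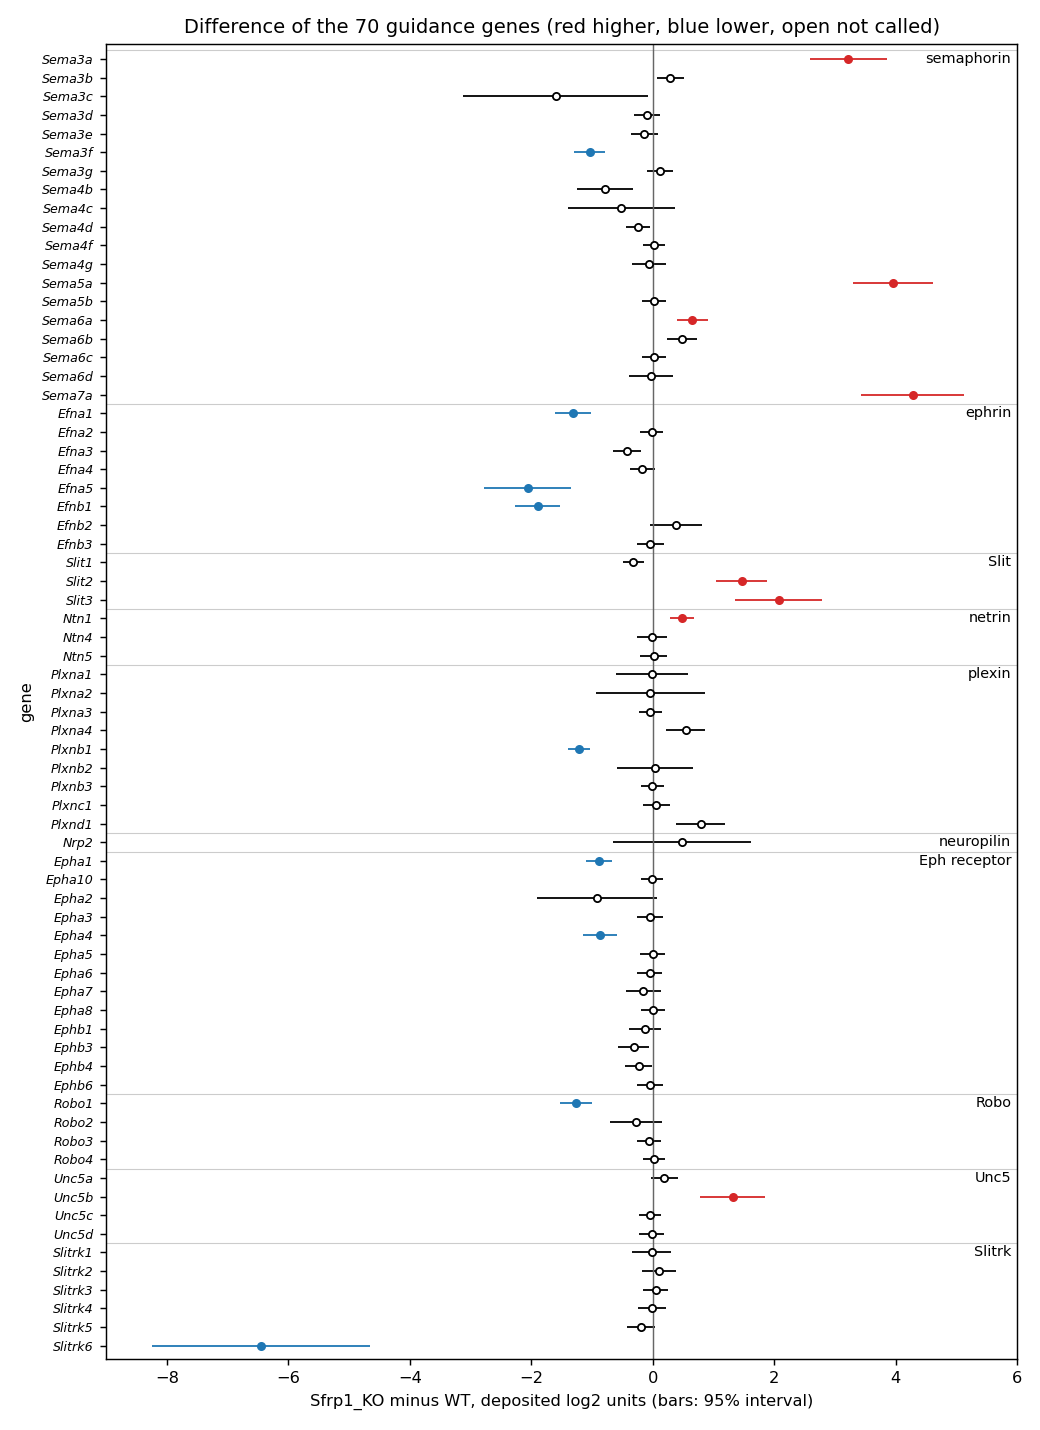
Fitted difference of each of the 70 guidance genes between genotypes, also where the text gives a bound (x axis, deposited log2 units, Sfrp1_KO minus WT), drawn with its 95% interval from the limma fit, grouped by family. Red genes were called higher, blue genes lower and open circles were not called; the ligands Sema7a, Sema5a and Sema3a lie farthest to the right and Slitrk6, at -6.46, farthest to the left.

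The promoters of the 3 members with the largest rises and the 3 with the largest falls are shown to compare genes that moved in each direction. Each sequence holds the 250 bases before a RefSeq transcription start in build GRCm38.p6, read 5′ to 3′ on the gene's strand. Capitals mark matches on either strand to the GC box (GGGCGG), the TATA box (TATAAA), the CCAAT box (CCAAT), the AP-1 site of the TPA-responsive factors (TGANTCA), an E-box bound by Snail and Zeb repressors (CACCTG) and a core site of the Wnt effector TCF (CTTTGAT).
Sema7a, chr9:57939862-57940111, plus strand: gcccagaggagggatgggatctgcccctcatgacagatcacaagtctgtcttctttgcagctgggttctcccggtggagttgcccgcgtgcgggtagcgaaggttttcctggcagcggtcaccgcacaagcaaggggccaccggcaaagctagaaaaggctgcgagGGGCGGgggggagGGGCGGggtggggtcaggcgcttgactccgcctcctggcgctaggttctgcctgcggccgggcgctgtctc
Sema5a, chr15:32244563-32244812, plus strand: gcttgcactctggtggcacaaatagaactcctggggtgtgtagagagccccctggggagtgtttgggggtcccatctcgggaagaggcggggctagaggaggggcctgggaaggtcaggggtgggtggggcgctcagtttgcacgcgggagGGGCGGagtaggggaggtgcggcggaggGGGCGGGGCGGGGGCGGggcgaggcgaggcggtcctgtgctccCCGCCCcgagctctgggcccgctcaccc
Sema3a, chr5:13396534-13396783, plus strand: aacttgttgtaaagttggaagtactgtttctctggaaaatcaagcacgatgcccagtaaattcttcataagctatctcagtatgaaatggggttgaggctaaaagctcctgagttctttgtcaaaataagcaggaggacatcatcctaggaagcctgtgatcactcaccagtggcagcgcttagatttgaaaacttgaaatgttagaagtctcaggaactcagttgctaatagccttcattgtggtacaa
Slitrk6, chr14:110755150-110755399, minus strand: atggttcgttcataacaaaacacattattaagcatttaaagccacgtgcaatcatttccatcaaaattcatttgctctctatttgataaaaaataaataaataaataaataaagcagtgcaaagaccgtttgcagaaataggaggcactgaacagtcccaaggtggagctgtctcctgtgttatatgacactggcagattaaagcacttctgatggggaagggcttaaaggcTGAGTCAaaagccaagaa
Efna5, chr17:62881318-62881567, minus strand: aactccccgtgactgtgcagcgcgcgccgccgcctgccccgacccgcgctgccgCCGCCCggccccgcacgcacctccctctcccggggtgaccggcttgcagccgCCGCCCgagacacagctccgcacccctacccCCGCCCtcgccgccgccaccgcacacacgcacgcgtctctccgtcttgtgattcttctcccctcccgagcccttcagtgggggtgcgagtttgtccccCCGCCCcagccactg
Efnb1, chrX:99135811-99136060, plus strand: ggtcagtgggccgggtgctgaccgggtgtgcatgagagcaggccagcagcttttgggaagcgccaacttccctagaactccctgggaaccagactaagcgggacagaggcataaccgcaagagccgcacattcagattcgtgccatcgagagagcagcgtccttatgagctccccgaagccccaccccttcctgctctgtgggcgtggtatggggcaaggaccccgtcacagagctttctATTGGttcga
The promoters of Sema7a, Sema5a and Efna5 held 2, 5 and 4 GC boxes, some of them overlapping, and their GC content was 66.4%, 72.0% and 74.8%, against a median of 52.4% over all 32851 promoters. Slitrk6 and Sema3a had GC contents of 37.2% and 40.8% and no GC box, and Slitrk6 alone of the 6 held an AP-1 match. Efnb1 (60.0% GC) held a CCAAT box. Among these 6 promoters, GC-rich and GC-poor ones occurred on both sides. Whether promoter type went with direction over the called members was not tested. Of the 17 called members 14 had a promoter in the RefSeq table (Sema6a, Sema3f and Ntn1 had none). A GC box was found in 10 of the 14 (32.7% of all promoters hold one), the E-box in 2 (17.2%), a CCAAT box in 2 (33.8%), a TATA box in 1 (12.4%), AP-1 in 1 (6.75%) and the TCF core in 0 (3.21%). These matches describe letters in this window and are not binding sites.

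Semaphorins carried the largest rises. On the WT arrays Sema7a, a semaphorin anchored to the membrane by a lipid, stood at 5.03, 5.46 and 5.28, and on the Sfrp1_KO arrays at 9.49, 10.29 and 8.82. Sema5a, a transmembrane semaphorin with thrombospondin repeats, was at 4.93, 5.40 and 5.31 in WT and at 9.02, 9.75 and 8.73 in Sfrp1_KO. Sema3a, a secreted cue that repels sensory axons and that keratinocytes can release, was at 4.59, 4.74 and 5.04 in WT and at 7.56, 8.56 and 7.92 in Sfrp1_KO. In all 3 genes the WT arrays lay close to background (above it on 2, 2 and 1 of 3 arrays) and every Sfrp1_KO array lay far above every WT array. The differences were 4.28 (SE 0.35, limma adjusted p = 0.00391) for Sema7a, 3.95 (SE 0.27, limma adjusted p = 0.00205) for Sema5a and 3.22 (SE 0.26, limma adjusted p = 0.00378) for Sema3a. Sfrp1_KO replicate 2 was the highest array in each of them.

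Sema6a, a transmembrane semaphorin, rose by a smaller step: it was at 4.44, 4.60 and 4.71 in WT, under background on every array, and at 5.25, 5.11 and 5.34 in Sfrp1_KO. The rise was at least 0.27 (limma adjusted p = 0.0287 for the unbounded difference of 0.65). It did not hold without any 1 of the 6 arrays (limma adjusted p = 0.0544 to 0.119), nor with all features tested (limma adjusted p = 0.0557).

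Sema3f, a secreted semaphorin that binds neuropilin-2 and opposes vessel growth and migration, went the other way. It was at 5.87, 6.02 and 5.69 in WT and at 4.81, 4.89 and 4.78 in Sfrp1_KO, where no array was above background. Sema3f therefore fell by at least 0.79 (limma adjusted p = 0.00701). Within the class of secreted semaphorins, Sema3a and Sema3f thus moved in opposite directions in the same arrays.

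Among semaphorins that were not called, Sema3c, another secreted member, was at 7.94, 5.61 and 5.50 in WT and at 4.74, 4.63 and 4.89 in Sfrp1_KO. No Sfrp1_KO array was above background, and WT replicate 1 stood more than 2 log2 units above the other WT arrays. The genotypes did not overlap, and the difference, bounded at -1.28, did not pass (limma adjusted p = 0.320). Without WT replicate 1 the bound was -0.48 and the test was passed (limma adjusted p = 0.0323). Sema4b, a transmembrane semaphorin, was at 7.48, 8.07 and 7.73 in WT and at 7.19, 7.03 and 6.69 in Sfrp1_KO (-0.79, SE 0.19, limma adjusted p = 0.0980), lower on every Sfrp1_KO array without passing. Sema4c was at 7.37, 7.53 and 6.12 in WT and 6.63, 6.49 and 6.35 in Sfrp1_KO, so its arrays overlapped through WT replicate 3; the difference was -0.52 (limma adjusted p = 0.648), and -0.97 without that array (limma adjusted p = 0.0296). Sema6d was above background on all arrays and at 5.82 ± 0.29 (SD, n = 3) and 5.79 ± 0.04 (SD, n = 3). Sema6b was at 4.45, 4.67 and 4.59 in WT and at 5.19, 5.03 and 4.94 in Sfrp1_KO, above background on no WT and 1 Sfrp1_KO array. The fitted difference was 0.48 (limma adjusted p = 0.0685), with no minimum given because both means lay under background. Sema6b was called when arrays were quantile-normalized again (limma adjusted p = 0.0359) or weighted (limma adjusted p = 0.0421). Sema3b and Sema4g were each above background on at most 1 array per genotype, and Sema3d, Sema3e, Sema3g, Sema4d, Sema4f, Sema5b and Sema6c on none.

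Among the receptors of semaphorins 1 of 9 plexins fell and none rose. Plxnb1, the receptor of Sema4d, was at 6.28, 6.28 and 6.32 in WT and at 5.13, 5.004 and 5.11 in Sfrp1_KO, with a spread within each genotype far below the gap between them. The Sfrp1_KO arrays lay at background, above it on 2 of 3, so the level left there is hardly measured. The difference was -1.21 (SE 0.08, limma adjusted p = 0.00183), and it passed in each of the 13 other settings. Sema4d itself was under background in both genotypes (4.59 ± 0.09 and 4.35 ± 0.04; SD, n = 3). Among the class A plexins, which carry the signal of secreted semaphorins, Plxna1 stood at 7.12 ± 0.37 and 7.11 ± 0.37 (SD, n = 3), Plxna2 at 6.19 ± 0.77 and 6.15 ± 0.23, and Plxna3 at 5.23 ± 0.06 and 5.19 ± 0.07. The 95% intervals of these differences ran from -0.61 to 0.58, from -0.94 to 0.85 and from -0.23 to 0.15, so shifts of that size are not excluded by the arrays. Plxnb2, a receptor of class 4 semaphorins, was at 7.59 ± 0.17 and 7.62 ± 0.53 (SD, n = 3).

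Plxnd1, a plexin best known from vessels, was at 4.99, 4.98 and 5.29 in WT and at 6.04, 6.05 and 5.55 in Sfrp1_KO. Every Sfrp1_KO array was above every WT array, but the difference of 0.79 (SE 0.17) did not pass (limma adjusted p = 0.0686). It passed without Sfrp1_KO replicate 3 (0.95, limma adjusted p = 0.0318), with dim genes left out (limma adjusted p = 0.0471), when arrays were quantile-normalized again (limma adjusted p = 0.0388) and when they were weighted (limma adjusted p = 0.0342). Of the blood endothelial markers none was above background on all arrays of a genotype. Cdh5, one of them, was at 4.22, 4.36 and 5.16 in WT and at 7.15, 6.69 and 4.88 in Sfrp1_KO (1.66, limma adjusted p = 0.264). Like Plxnd1 it was lowest of the Sfrp1_KO arrays in replicate 3. It too passed without that array (2.34, limma adjusted p = 0.0337). Every other blood endothelial marker had a lower mean in Sfrp1_KO, and the median difference of the list was -0.15. However, 7 of the 10 markers were above background on no array, so no level was measured for those. Replicate 3 was also the lowest Sfrp1_KO array for the pericyte marker Pdgfrb and the macrophage marker Lyz2. The part of Cdh5 in the Plxnd1 values was not tested. Plxna4, the remaining class A plexin, was at 4.47, 4.70 and 4.77 in WT and 5.08, 5.07 and 5.40 in Sfrp1_KO, above background on no WT and 1 Sfrp1_KO array. Every Sfrp1_KO array was above every WT array, and the difference was at least 0.22 (limma adjusted p = 0.103). Plxnc1, the plexin that binds Sema7a, and Plxnb3, which binds Sema5a, were under background on all 6 arrays. Sema7a can also act through integrin β1, and its gene Itgb1 stood at 8.70 ± 0.44 and 8.63 ± 0.04 (SD, n = 3). Nrp2, a co-receptor of secreted semaphorins, was at 8.003, 6.57 and 6.19 in WT and at 7.56, 7.67 and 6.98 in Sfrp1_KO; the genotypes overlapped, with WT replicate 1 above all other arrays (0.48, SE 0.47, limma adjusted p = 0.782).

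**Figure D2:**
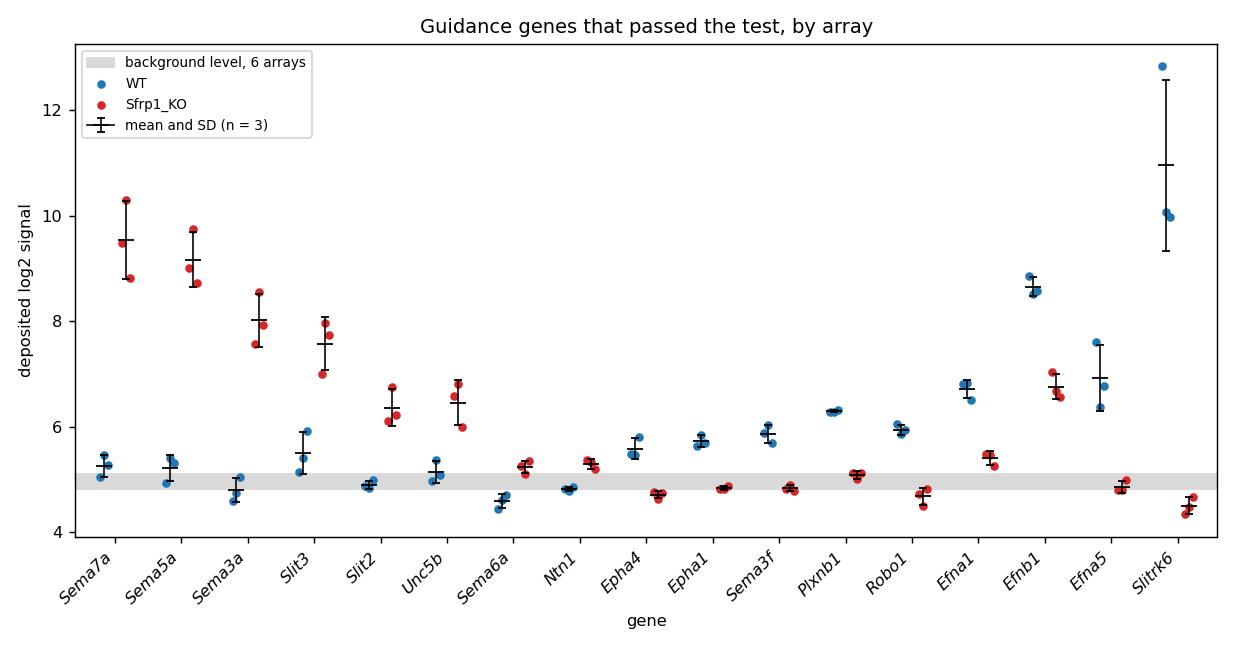
Deposited log2 signal (y axis) of the 17 guidance genes that passed the test, on each WT (blue) and Sfrp1_KO (red) array, with mean and SD (n = 3) and the range of the background level in grey. The genotypes overlap in none of these genes; the WT points of Sema7a and Sema5a and the Sfrp1_KO points of Slitrk6 lie in or next to the background band.

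Ephrins went down or did not pass: 3 of 8 fell and none rose. Efnb1, a transmembrane ephrin, was at 8.86, 8.52 and 8.57 in WT and at 7.03, 6.68 and 6.56 in Sfrp1_KO. Efna1, an ephrin anchored by a lipid, was at 6.80, 6.83 and 6.50 in WT and at 5.48, 5.47 and 5.25 in Sfrp1_KO. Both remained above background on all Sfrp1_KO arrays, with differences of -1.89 (SE 0.15, limma adjusted p = 0.00378) and -1.31 (SE 0.12, limma adjusted p = 0.00539). Efna5, also lipid-anchored, was at 7.60, 6.37 and 6.77 in WT and at 4.79, 4.79 and 4.99 in Sfrp1_KO, under background there, so it fell by at least 1.85 (limma adjusted p = 0.0205). Efna5 was not called without WT replicate 3 or without Sfrp1_KO replicate 1, 2 or 3 (limma adjusted p = 0.0614, 0.0844, 0.101 and 0.0602).

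Further ephrins were expressed without passing. Efnb2, which marks arteries and binds Ephb4, was at 6.82, 6.95 and 7.44 in WT and at 7.39, 7.61 and 7.36 in Sfrp1_KO, with overlapping arrays (0.39, limma adjusted p = 0.404, 95% interval -0.04 to 0.81). Efna3 was at 6.67, 6.76 and 6.83 in WT and at 6.21, 6.29 and 6.46 in Sfrp1_KO (-0.43, SE 0.10, limma adjusted p = 0.0815), and it passed with array weights (limma adjusted p = 0.0358). Efna4 was at 5.55, 5.40 and 5.53 in WT and at 5.24, 5.40 and 5.34 in Sfrp1_KO, where the closest arrays of the genotypes touch (-0.17, limma adjusted p = 0.469). Efna1, Efna3 and Efna4 follow each other on chromosome 3 with no protein-coding gene between them, and all 3 had lower means in Sfrp1_KO, while only Efna1 passed. Efnb3 was above background on 1 array and Efna2 on none.

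Of 13 Eph receptors 2 fell and none rose, and 7 were under background on all arrays. Epha1, a receptor of epithelial cells, was at 5.62, 5.84 and 5.69 in WT and at 4.82, 4.81 and 4.88 in Sfrp1_KO. Epha4, which binds ephrins of both classes, was at 5.48, 5.46 and 5.81 in WT and at 4.76, 4.63 and 4.74 in Sfrp1_KO. Neither was above background on any Sfrp1_KO array, so they fell by at least 0.65 (limma adjusted p = 0.00633) and at least 0.51 (limma adjusted p = 0.0164). Epha4 was not called without Sfrp1_KO replicate 1, 2 or 3 (limma adjusted p = 0.0664, 0.0853 and 0.0507). Epha2, the receptor of Efna1 that is abundant in keratinocytes, was at 8.89, 7.93 and 7.80 in WT and at 7.94, 7.30 and 6.61 in Sfrp1_KO. Its arrays overlapped and spread widely in both genotypes (-0.92, SE 0.41, limma adjusted p = 0.388). Ephb4, the receptor of Efnb2, was at 6.80, 6.59 and 6.68 in WT and at 6.53, 6.46 and 6.37 in Sfrp1_KO (-0.23, SE 0.09, limma adjusted p = 0.305). Ephb3, a receptor of ephrin-B ligands, was at 5.27, 5.23 and 5.56 in WT and at 5.04 on each Sfrp1_KO array, under background there (bounded at -0.28, limma adjusted p = 0.232). Ephb6, a family member without kinase activity, was above background on 1 array. Epha3, Epha5, Epha6, Epha7, Epha8, Epha10 and Ephb1 were above it on none. In the same arrays the keratinocyte genes Cdh1 and Trp63 fell, as part of the marker list above.

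Slits and their receptor moved apart. Slit2, a secreted repellent, was at 4.86, 4.83 and 4.99 in WT and at 6.10, 6.75 and 6.22 in Sfrp1_KO. Slit3, a secreted relative that fibroblasts and vessels produce, was at 5.15, 5.41 and 5.92 in WT and at 7.004, 7.96 and 7.73 in Sfrp1_KO. The WT arrays of Slit2 lay at background (above it on 1 of 3) and those of Slit3 just above it, while all Sfrp1_KO arrays were well above. The differences were 1.46 (SE 0.18, limma adjusted p = 0.0112) and 2.07 (SE 0.30, limma adjusted p = 0.0201). Slit3 was not called without WT replicate 1 or 2 or without Sfrp1_KO replicate 2 or 3 (limma adjusted p = 0.0524, 0.0623, 0.0848 and 0.0691). Slit1, the member of the nervous system, was under background on all arrays.

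Robo1, the receptor that both Slits bind, was at 6.04, 5.85 and 5.93 in WT and at 4.72, 4.50 and 4.82 in Sfrp1_KO, where it was not above background. Robo1 fell by at least 0.87 (limma adjusted p = 0.00441 for the unbounded difference of -1.26) and passed in each of the 13 other settings. Robo2, its direct neighbour on chromosome 16 among protein-coding genes, was at 4.77, 5.43 and 5.32 in WT and at 4.84, 4.86 and 4.99 in Sfrp1_KO, with overlapping arrays and none above background in Sfrp1_KO (bounded at -0.11, limma adjusted p = 0.607). Robo3 and Robo4, the latter a receptor of endothelial cells, were under background on all arrays.

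Slitrk6 had the largest difference among the 70 members. Slitrk genes encode membrane proteins with Slit-like leucine-rich repeats that organise synapses and neurite growth, and Slitrk6 is known from the inner ear, the eye and several epithelia. It was at 12.83, 10.07 and 9.96 in WT and at 4.34, 4.48 and 4.67 in Sfrp1_KO. Each Sfrp1_KO array was under background, and WT replicate 1 stood more than 2 log2 units above the other WT arrays. Slitrk6 fell by at least 5.89 (limma adjusted p = 0.0104); the call ended without Sfrp1_KO replicate 1 (limma adjusted p = 0.0501) or replicate 2 (limma adjusted p = 0.0601). Its neighbours on chromosome 14, Slitrk1 and Slitrk5, and the members Slitrk2, Slitrk3 and Slitrk4 were under background on all 6 arrays.

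Netrin and its repulsive receptor were both higher in Sfrp1_KO. Ntn1, the secreted netrin-1, was at 4.81, 4.77 and 4.85 in WT and at 5.37, 5.32 and 5.19 in Sfrp1_KO. Unc5b, a receptor that netrin-1 engages in vessels and in cell survival, was at 4.97, 5.37 and 5.08 in WT and at 6.57, 6.80 and 5.98 in Sfrp1_KO. The WT levels were close to background in both genes (above it on 1 and 2 of 3 arrays) and the genotypes did not overlap. Ntn1 rose by 0.48 (SE 0.08, limma adjusted p = 0.0326) and Unc5b by 1.31 (SE 0.22, limma adjusted p = 0.0343).

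The netrin calls were not stable. With all features tested, neither passed (limma adjusted p = 0.0722 for Ntn1 and 0.0558 for Unc5b). Without WT replicate 1, 2 or 3 or without Sfrp1_KO replicate 1 or 2, Ntn1 had limma adjusted p-values of 0.0773, 0.0964, 0.0864, 0.141 and 0.142, and Unc5b of 0.0932, 0.0608, 0.109, 0.132 and 0.115. Of the other netrin ligands Ntn4, a netrin of basement membranes, was at 5.25 ± 0.03 in WT and 5.23 ± 0.16 (SD, n = 3) in Sfrp1_KO, and Ntn5 was under background. Unc5a, Unc5c and Unc5d were under background on all arrays, as was Dcc, the attractive netrin receptor. Neo1, which encodes neogenin, was expressed at 6.001 ± 0.18 and 5.86 ± 0.22 (SD, n = 3; limma adjusted p = 0.809).

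**Figure D3:**
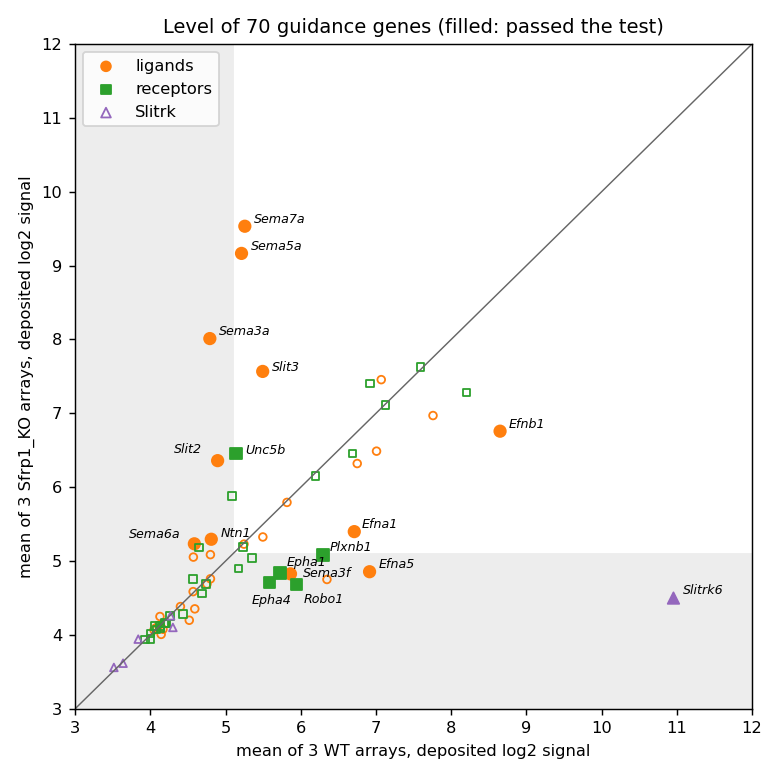
Mean deposited log2 signal of the 70 guidance genes on the WT arrays (x axis) and Sfrp1_KO arrays (y axis), n = 3 each; ligands are circles, receptors squares and Slitrk genes triangles, filled where the test was passed. Grey areas lie under 5.10, the highest background level, and the line marks equal means; filled ligands lie on both sides of the line, while Unc5b is the 1 filled receptor above it.

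Genes that work with these families were taken from 2 lists, 20 measured co-receptors and other ligands and 53 measured effectors inside the cell. Of these 73 partners 4 rose and 6 fell, 13.7% in all, beside 3.28% of all genes, and their median difference was -0.01. With the test run only on genes above background on at least 3 arrays, 3 of 43 partners rose and 6 fell. In that run 610 of 11010 genes were higher and 479 lower. Among co-receptors and ligands, Flrt3, a membrane protein that binds Unc5 and Robo receptors, was at 5.56, 5.22 and 5.76 in WT and at 4.35, 4.09 and 4.33 in Sfrp1_KO and fell by at least 0.45 (limma adjusted p = 0.0126). L1cam, a partner of neuropilins in Sema3a signalling, was at 5.39, 5.23 and 5.63 in WT and at 4.58, 4.59 and 4.62 in Sfrp1_KO and fell by at least 0.34 (limma adjusted p = 0.0189). Both were under background on every Sfrp1_KO array. Rgmb, a ligand of neogenin, was at 4.42, 4.34 and 4.41 in WT and 4.84, 5.02 and 5.16 in Sfrp1_KO, with 1 array above background. It was called higher (fitted difference 0.62, limma adjusted p = 0.0308). Its Sfrp1_KO mean of 5.01 lay under the mean background level of those arrays, 5.07, so no minimum rise is given. Of those that did not pass, Chl1, a relative of L1cam (bounded at -0.06, limma adjusted p = 0.0627), Flrt1 (bounded at -0.05, limma adjusted p = 0.250) and Flrt2 (-0.58, limma adjusted p = 0.397) had the smallest p. Chl1 and Flrt1 were above background on no Sfrp1_KO array.

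Among the effectors, Dpysl3, a collapsin response mediator protein that acts downstream of Sema3a, was at 5.82, 5.94 and 5.95 in WT and at 7.26, 7.62 and 7.16 in Sfrp1_KO and rose by 1.44 (SE 0.13, limma adjusted p = 0.00537). Farp1, an exchange factor that works with plexins, was at 5.80, 6.15 and 5.59 in WT and at 7.67, 7.14 and 6.79 in Sfrp1_KO and rose by 1.35 (SE 0.25, limma adjusted p = 0.0419). Dock1, an exchange factor for Rac used by netrin receptors, was at 6.21, 6.27 and 5.79 in WT and at 7.15, 7.22 and 6.81 in Sfrp1_KO and rose by 0.97 (SE 0.17, limma adjusted p = 0.0371). All 3 were above background on every array, with no overlap of the genotypes. Enah, an actin elongation factor downstream of Robo, was at 7.06, 6.27 and 6.45 in WT and at 5.05, 5.12 and 5.03 in Sfrp1_KO and fell (-1.53, SE 0.20, limma adjusted p = 0.0158). Its Sfrp1_KO arrays lay at background, above it on 1 of 3. Limk2, a kinase that inactivates cofilin, was at 6.51, 6.36 and 6.42 in WT and at 5.32, 5.29 and 5.20 in Sfrp1_KO and fell (-1.16, SE 0.08, limma adjusted p = 0.00229). Tiam1, a Rac exchange factor used by ephrins, was at 5.59, 5.43 and 5.80 in WT and at 4.70, 4.61 and 4.70 in Sfrp1_KO and fell by at least 0.54 (limma adjusted p = 0.0108). Grip1, a scaffold of ephrin-B and Eph receptors, fell by at least 0.22 (limma adjusted p = 0.0126). Of effectors that did not pass, those with the smallest p were Mical3 (-0.36, limma adjusted p = 0.0777), Ablim1 (bounded at -0.03, limma adjusted p = 0.0771), Ngef (0.45, limma adjusted p = 0.0905), Crmp1 (at least 0.20, limma adjusted p = 0.0919), Inppl1 (0.92, limma adjusted p = 0.111) and Pak2 (-0.43, limma adjusted p = 0.124). Of the GTPases that these routes share, none of Rac1, Cdc42, Rhoa and Rras passed. Rac1 was at 8.93 ± 0.07 in WT and 8.86 ± 0.17 in Sfrp1_KO (SD, n = 3), and Cdc42 at 9.17 ± 0.14 and 9.32 ± 0.15. Rhoa was higher on every Sfrp1_KO array, at 7.33 ± 0.13 and 7.75 ± 0.31 (SD, n = 3; 0.42, limma adjusted p = 0.318). Rras, at 7.96 ± 1.02 and 8.66 ± 0.82 (SD, n = 3), had overlapping arrays (0.71, limma adjusted p = 0.733).

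**Figure D4:**
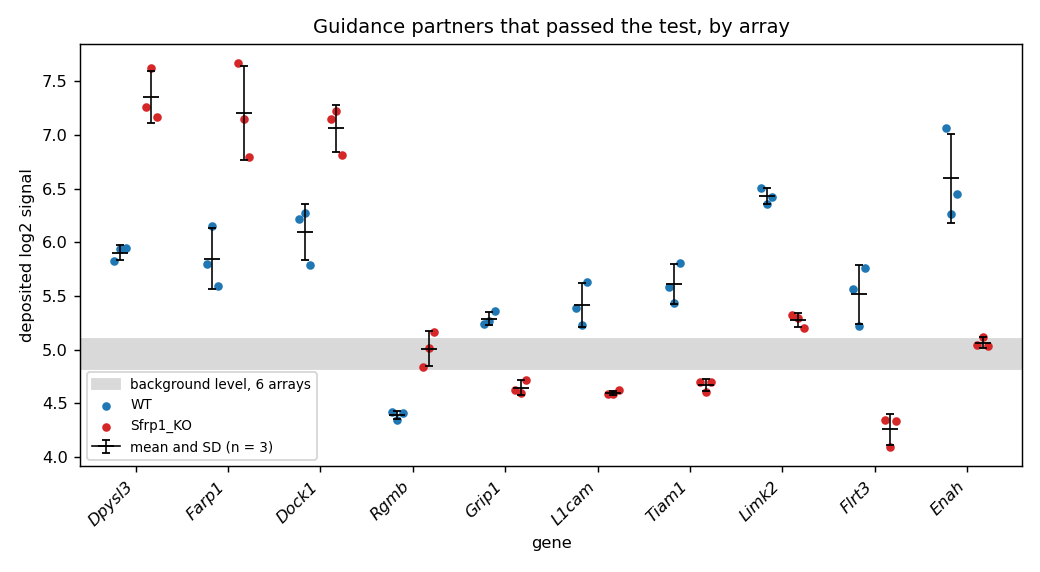
Deposited log2 signal (y axis) of the 10 guidance partners that passed the test, on each WT (blue) and Sfrp1_KO (red) array, with mean and SD (n = 3) and the range of the background level in grey. Dpysl3, Farp1, Dock1 and Rgmb are higher in Sfrp1_KO, and the other 6 are lower, with Grip1, L1cam, Tiam1 and Flrt3 under background there and Enah above it on 1 array.

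Dpysl3 and Limk2 passed in all 13 other settings. The other 8 (Enah, Flrt3, Grip1, L1cam, Tiam1, Dock1, Farp1 and Rgmb) lost their call without Sfrp1_KO replicate 1 and without Sfrp1_KO replicate 2. Enah, L1cam and Rgmb also lost it without Sfrp1_KO replicate 3, and Dock1, Farp1 and Rgmb without each of the WT arrays and with all features tested. Over all settings the limma adjusted p reached 0.0769 for Enah, 0.0663 for Flrt3, 0.0717 for Grip1, 0.0930 for L1cam, 0.0655 for Tiam1, 0.153 for Dock1, 0.154 for Farp1 and 0.133 for Rgmb. Uncalled partners also gained calls: Chl1 in 4 of 12 settings (limma adjusted p down to 0.0231), and Ablim1, Crmp1, Dpysl2, Inppl1, Mical3 and Ngef in at least 1.

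Of the 17 called members 10 passed in every setting tried, namely Sema7a, Sema5a, Sema3a, Slit2, Efnb1, Efna1, Robo1, Plxnb1, Sema3f and Epha1. The other 7 (Slitrk6, Efna5, Slit3, Unc5b, Sema6a, Ntn1 and Epha4) lost their call in at least 1, and 5 uncalled members gained one in at least 1 (Plxnd1, Sema6b, Efna3, Sema3c and Sema4c). No called member changed direction in any setting. The arrays of a genotype also differed among themselves: over the 26 members above background on all WT arrays, WT replicate 1 was highest in 11, and over the 25 above background on all Sfrp1_KO arrays, Sfrp1_KO replicate 2 was highest in 14 and replicate 3 in 3. Members with the largest spread in WT were Slitrk6 (SD 1.62, n = 3), Sema3c (SD 1.38) and Nrp2 (SD 0.96), with WT replicate 1 highest in each of them.

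**Figure D5:**
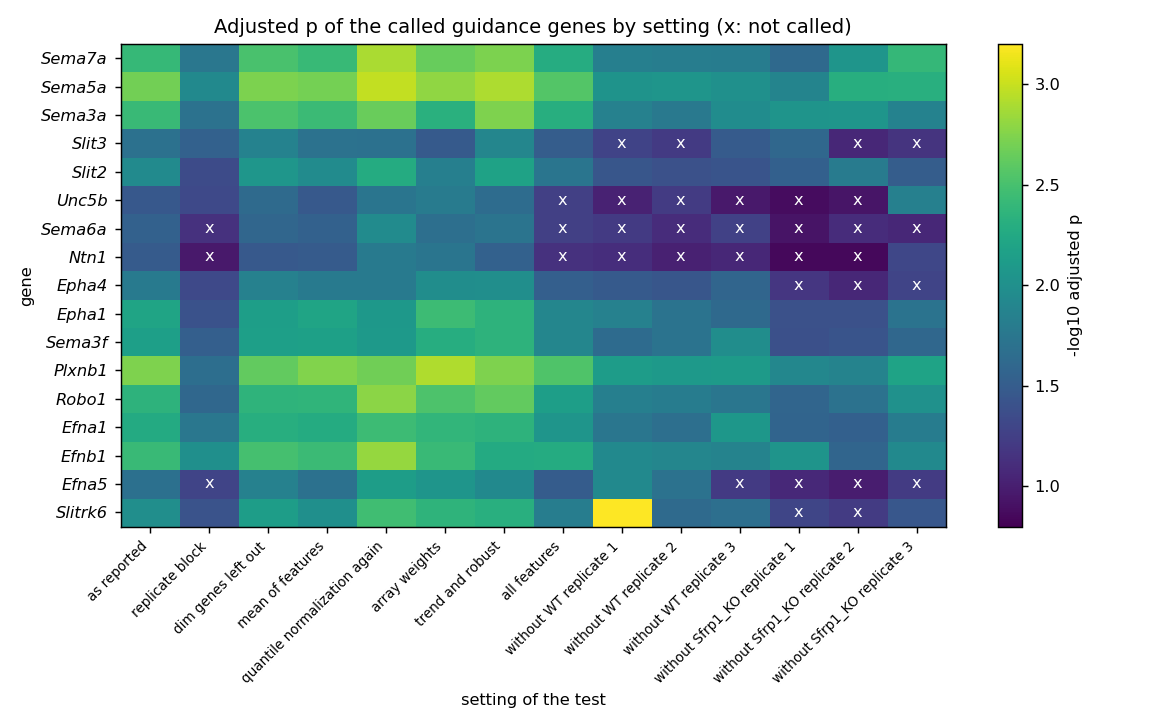
Adjusted p of the 17 called guidance genes (rows) as reported and in 13 other settings of the test (columns), coloured as -log10 of the limma adjusted p; x marks a setting in which the gene was not called. The 10 genes without an x passed throughout, and most marks lie in columns that leave out 1 array.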

How the data were processed

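The values are log2 probe set signals as deposited. The submitters' processing notes name RMA and Affymetrix Expression Console, without their versions; the annotation build the authors used is not stated there. Each of the 6 samples (3 per genotype) was hybridised to 1 Affymetrix MTA 1.0 array, and genotype and replicate number come from the titles in the labels. Of 65956 transcript clusters 30604 had 1 gene symbol in the platform annotation, 2146 several and 33206 none; symbols were updated through a RefSeq table (assembly GRCm38.p6), where 22818 matched. The brightest feature stood for each of 30142 genes, with no filter on dim ones.

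The test between genotypes was that of limma 3.58.1 under R 4.3.3, two-sided, by lmFit followed by eBayes, with Benjamini-Hochberg adjustment over all genes. The moderated standard error (SE) and 95% intervals come from that fit. Any p-value printed beside a bound belongs to the unbounded fitted difference and does not test the bound. Where no array of a genotype exceeded background (the highest of 23 background probe sets of an array), the difference is written as a bound ("at least" or "bounded at"), measured from the mean background level. No bound is given for Rgmb and Sema6b, whose Sfrp1_KO means also lay under the mean background level. The families, and so the members, and the lists were chosen with earlier results of these data known; the rule itself uses symbols only. Named with values per array were all called members and uncalled members above background in a genotype whose arrays do not overlap; other values were chosen after they were seen. Same-numbered arrays of the genotypes had correlated deviations of 0.18, -0.12 and 0.17 across genes, so the numbers were not taken as pairs. The test was repeated with a block for the replicate number, without dim genes, on the mean of features, after a further quantile normalization, with array weights, with trend and robust moderation, on all features, and without each array in turn. Tested on simulated data for this comparison (30142 genes), it called 31 of 50 genes shifted by 1 log2 unit, 40 of 50 shifted by 2, 48 of 50 by 3 and 47 of 50 by 4, and 7 of its 173 calls were false.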

Additional observations from a re-analysis of the deposited data

How the results depend on the processing

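The counts of called genes moved more than the directions. With a replicate block, 297 genes were higher and 238 lower (552 and 437 as reported), 6 members rose and 8 fell, and the calls of Efna5, Ntn1 and Sema6a ended (limma adjusted p = 0.0510, 0.109 and 0.0717); no other member lost its call under it, and the partners Farp1, L1cam and Rgmb did. After quantile normalization once more 892 genes were higher and 7 partners rose. With all features tested, 5 members and 1 partner rose. Leaving out 1 array at a time gave 191 to 487 genes higher and 100 to 407 lower, 4 to 7 members higher and 6 to 10 lower, and 1 to 3 partners higher and 1 to 8 lower. Over the 13 settings, called members lost their call without 1 array or under the block or all features, and none with dim genes left out, the mean of features, quantile normalization, array weights or trend and robust moderation. For the 29 members under background on all arrays, no level and so no size of a change was measured.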
